A study of Mus musculus with 4 samples.

Results

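Voltage-gated sodium and calcium channel genes were followed in mouse retinal ganglion cells taken by Thy1 panning and an mCherry sort. Ganglion cells are the neurons that send the retina's output along the optic nerve. Members were chosen by symbol: Scn followed by a number and the letter a or b, or a symbol starting with Cacna1, Cacna2d, Cacnb or Cacng. This rule used no measured value and took 40 of the 78334 gene identifiers in the counts table, 14 sodium channel and 26 calcium channel genes. All mice were wild type, of both sexes and 8 to 12 weeks old at the procedures. All eyes had an optic nerve crush and were collected 2 weeks later. Adeno-associated virus of serotype 2 (AAV2) had been put into the vitreous 2 weeks before the crush, at 8 weeks of age and 2 µl per eye. Both vectors carried the reporter mCherry, with either an shRNA against the microRNA miR-132-3p (the anti-miR132-3p group) or a scramble shRNA (the control group). Each condition pooled 10 retinas, about 40% of ganglion cells were transduced, and about 5000 mCherry-positive cells went into each library. The promoter that drove the shRNA is not given in the sources used here, and uninjured or uninjected eyes were not analysed here.

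There were 2 libraries per group, with 1845090 and 1846637 counts for the scramble shRNA and 1732416 and 1731199 counts for the anti-miR132-3p shRNA. Within a group, the 2 libraries were as alike as counting noise allows (chi-square per degree of freedom 1.02, p = 0.095, for scramble, and 1.00, p = 0.49, for anti-miR132-3p). Over the 32 members with at least 10 counts in all, this ratio was 1.19 and 0.988 within groups and 2.81 to 4.2 across groups. Each pair was therefore counted as 1 sample, n = 1 per group, so there is no SD, and the differences below have no replicate check. Whether such libraries stem from separate animals is not stated in the labels. The deposited columns named mCherry were taken as scramble by exclusion: mCherry is made from both vectors, and each direction given here rests on that choice. The targeted microRNA could not be checked, because the microRNA genes Mir132 and Mir212 held 0 counts in all libraries and polyadenylated RNA does not measure mature microRNA.

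Voltage-gated sodium channels open when a neuron depolarises and carry the rising phase of the action potential. Each has 1 large pore-forming alpha subunit and smaller beta subunits that tune its gating and its place in the membrane. Voltage-gated calcium channels turn the same depolarisation into calcium entry. Their alpha1 subunit forms the pore and defines the type (L, P/Q, N, R or T), and the beta and alpha2delta subunits carry the high-voltage types to the membrane. The gamma genes are named for a muscle channel subunit, but most of those in neurons serve AMPA-type glutamate receptors. In ganglion cells sodium channels cluster at the axon initial segment, where spikes for the optic nerve begin.

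The miRNA and its possible sites are shown first because the treatment was aimed at them. In the mature miRNA, from RefSeq (GRCm38.p6), the seed, bases 2 to 8, is in capitals.
mmu-miR-132-3p: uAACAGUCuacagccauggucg
A seed match in a transcript reads GACTGTTA (8mer), GACTGTT (7mer-m8, the first 7 letters of the 8mer) or ACTGTTA (7mer-A1, its last 7 letters). The longest annotated 3′ UTR of each gene (GENCODE M21) was searched on the transcript's own strand, and overlapping matches were counted once, as the longest. The sodium channel genes Scn1a, Scn2a and Scn3a hold a 7mer-m8 near the start of the 3′ UTR in nearly the same surroundings, which are printed with the match in capitals.
Scn1a: gaagtcaatgccaaactGACTGTTtttaca
Scn2a: gaggtctatgccaaactGACTGTTtctata
Scn3a: gaggtccatgccaaactGACTGTTtcaaca
Of the 30 bases shown, 25 are the same in all 3 genes, 18 of them in a run that holds the match. Those 3 genes lie in 1 cluster with Scn9a and Scn7a in RefSeq's gene order. Other tested members with a 7mer-m8 were Scn9a, Cacna1c, Cacna1h, Cacna2d1, Cacna2d4 and Cacng4, and Cacnb4 held 4 matches, all 7mer-A1. None of these genes was called higher or lower, and their sites are not printed. Among tested members the full 8mer was found in Cacng2 alone, which was not called. Cacng5 and Scn3b, both called higher, carry a 7mer-m8 each.
Cacng2: ttcttatttttttccaGACTGTTAacagaa
Cacng5: ctcagaaatctcaagcaGACTGTTcctttt
Scn3b: aatatctcttttttaatGACTGTTctaagt
At least 1 of the 3 matches was found in 13 of the 28 tested members (46.4%), against 23.1% of the 10395 tested genes with an annotated 3′ UTR. The members' 3′ UTRs were longer, with a median of 2520.5 bases against 1348.

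More channel genes were higher than lower with the anti-miR132-3p shRNA, with 8 of 20 tested calcium channel genes and 3 of 8 tested sodium channel genes called higher. A gene was tested when it passed edgeR's filter on low counts, which 28 members did, and was called when edgeR's quasi-likelihood test gave a Benjamini-Hochberg adjusted p under 0.05 over all 11427 tested genes. These p-values concern the reads of the libraries at hand rather than the conditions, and measure only the spread between libraries, which may be technical. Of the 28 tested members, 11 were called higher (39.3%), beside 13.5% of all tested genes. None was called lower, beside 10.4% of all tested genes. DESeq2 also called 0 lower, beside 274 of all 11427 genes, and limma-voom 0, beside 1136. Of the settings described below, upper quartile scaling called 1 member lower, beside 1442 of all genes. The correction for GC content and length also called 1 lower, beside 831. At an unadjusted p under 0.05 edgeR gave 13 members higher and 2 lower. The share of all tested genes at an unadjusted p is not given, here or below, so such counts have no background beside them. The median log2 fold change was 0.22 over the tested members and -0.003 over all tested genes. By size alone, 8 members were past 1.5-fold higher (all tested genes 12.5%) and 2 past 1.5-fold lower (all tested genes 5.14%).

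The count of calls moved with the test and the libraries. DESeq2 called 3 members higher, Cacna1d, Cacna1i and Scn3a, beside 4.21% of all tested genes. Without either scramble library edgeR called 0 members, and 0 of all 11427 genes, with 7 members (without replicate 1) and 9 (without replicate 2) higher at an unadjusted p under 0.05. Without either anti-miR132-3p library it called 3, beside 3.74% (without replicate 1) and 3.58% (without replicate 2) of all tested genes. Both libraries of one group lay beyond both of the other for 20 tested members, 71.4%, but this was so for 61.8% of all tested genes.

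**Figure D1:**
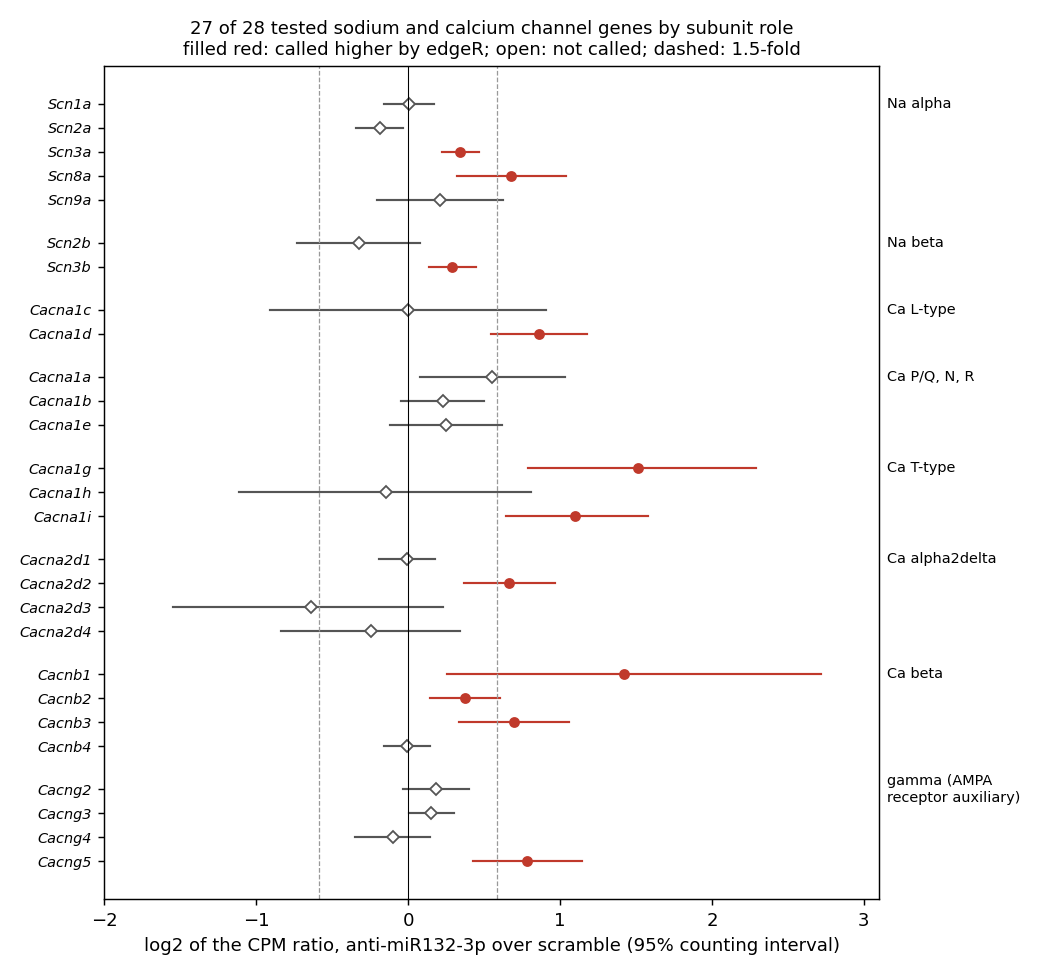
Ratio of CPM of the summed libraries, anti-miR132-3p over scramble, on a log2 axis for 27 of the 28 tested members by subunit role, with bars for the exact 95% interval of counting error. Of the filled points, the 11 members called higher, Cacna1g lies farthest to the right at 2.85-fold, while Cacna2d3 is the open point beyond the left dashed line of 1.5-fold.

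Levels are in CPM, a gene's count over the library total scaled by edgeR's TMM factors. Folds are ratios of the CPM of summed pairs, and their exact 95% intervals (Clopper-Pearson) cover counting error only. Transcript length and GC content moved with the result. Channel transcripts are long, with a median of 7681 bases over tested members against 3221 over all tested genes. Across genes the log2 fold change rose with length (Spearman's correlation 0.28 over 11273 genes, which are not independent). It also rose with GC content (0.24). Over the 28 tested members these correlations were 0.16 with length and 0.22 with GC content. Of the 2818 genes with the longest transcripts, 4825 bases or more, 19.9% were called higher and 6.88% lower, and the median log2 fold change was 0.13. They included 18 of the 28 tested members, of which 6 were called higher. The next 2818 genes by length included 7 members, 4 of them called higher, beside 18.8% of those genes. The correction that follows was fitted to each library's deviation from the mean of all libraries. It therefore takes out any difference between the groups that follows length or GC content, whatever its source. Technical and other sources of such a difference cannot be told apart here. After a correction for GC content and length, 8 members were called higher and 1 lower, beside 10.7% and 7.27% of all tested genes, and the median over members was 0.08, against 0.04 over all tested genes. The correction ended the calls of Cacna2d2 (adjusted p = 0.10 with edgeR), Cacnb1 (0.14) and Cacnb3 (0.23).

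**Figure D2:**
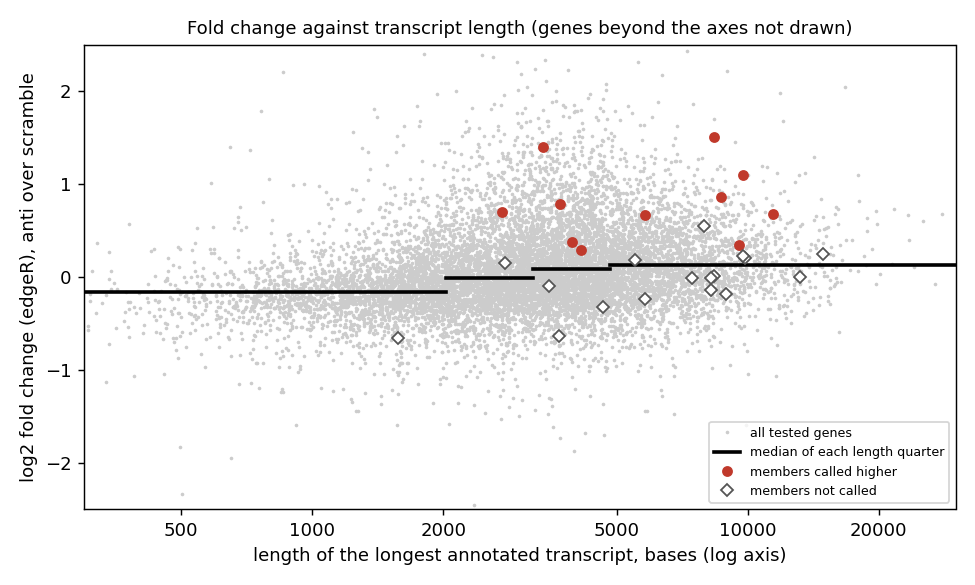
Log2 fold change (edgeR, anti-miR132-3p over scramble) against the length of the longest annotated transcript in bases on a log axis, with all tested genes in grey, members as large symbols and black lines for the medians of 4 equal bins of genes by length. The medians climb from -0.17 in the shortest bin to 0.13 in the longest, where 18 of the 28 tested members lie.

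Sodium channel alpha subunits were led by 3 genes at similar levels. Per kb of transcript, Scn3a was at 27.8 CPM (26.0 to 29.6), Scn2a at 23.6 (21.9 to 25.3) and Scn1a at 20.3 (18.7 to 21.9) with the scramble shRNA. The interval of Scn3a lies above those of the other genes, and those of Scn2a and Scn1a just overlap. With the anti-miR132-3p shRNA Scn3a was at 35.2 (33.3 to 37.3), and Scn2a at 20.7 (19.1 to 22.3) and Scn1a at 20.3 (18.7 to 22.0) could not be told apart. Scn9a and Scn8a were far below, at 2.67 and 2.58 CPM per kb with scramble, and Scn8a passed Scn9a to 4.13 against 3.08 with anti-miR132-3p, with overlapping intervals. Of the summed alpha subunit level per kb, Scn3a made up 35.7% and 41.8%, Scn2a 30.3% and 24.5%, and Scn8a 3.32% and 4.89%, in scramble and anti-miR132-3p.

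Scn3a and Scn8a were the alpha subunit genes called higher. Scn3a encodes Nav1.3, a channel of the embryonic nervous system that injured sensory neurons express again. It had 499 and 472 counts in the scramble libraries and 582 and 596 in the anti-miR132-3p libraries, so that the groups did not overlap. The ratio was 1.27-fold (1.16 to 1.38, adjusted p = 0.00040 with edgeR). Scn8a encodes Nav1.6, the main channel of mature axon initial segments and nodes. Its counts were 57 and 51 with scramble and 84 and 81 with anti-miR132-3p, 1.6-fold higher (1.247 to 2.06, adjusted p = 0.0070).

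Scn2a, which encodes Nav1.2, the channel that precedes Nav1.6 at developing nodes and initial segments, had 395 and 375 counts against 317 and 329. Both anti-miR132-3p libraries were below both scramble libraries, at a ratio of 0.878 (0.789 to 0.976), but the gene was not called (adjusted p = 0.063 with edgeR). Scn1a, which encodes Nav1.1, had 339 and 283 counts against 288 and 308, with overlapping groups and a ratio of 1.00 (0.895 to 1.12). Scn9a, which encodes Nav1.7, had 51 and 45 counts against 51 and 55. An antisense gene, Gm13629, overlaps exons of Scn9a and held 313 and 297 counts in the groups, and the strand setting of the counting is not given in the sources used here. The alpha genes also resemble each other: 8.05% of the 50-base words of the longest Scn3a transcript occur in another member's transcript, 7.59% for Scn2a and 5.41% for Scn1a, where reads could be assigned to either. For 27 of the 40 members no such word was shared.

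Among the sodium channel beta subunits, 1 of 3 tested genes was called higher, beside 13.5% of all tested genes. Scn3b, the most abundant of them at 42.4 CPM per kb with scramble, had 318 and 326 counts against 358 and 395. Its groups did not overlap, and the ratio was 1.22-fold (1.1 to 1.36, adjusted p = 0.0088 with edgeR). Scn2b, whose protein is linked to the alpha subunit by a disulfide bond, had 59 and 63 counts against 46 and 47, with a ratio of 0.798 (0.602 to 1.05). The summed beta subunit level lay between 227 and 230 CPM with scramble and between 245 and 263 CPM with anti-miR132-3p, and of its level per kb Scn3b made up 68.9% and 79.8%.

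**Figure D3:**
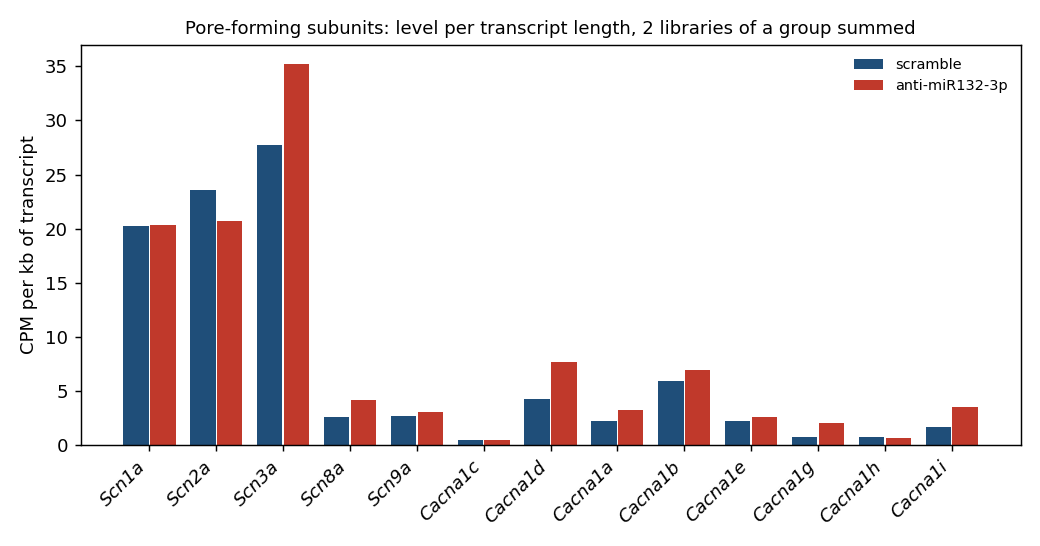
CPM per kb of the longest annotated transcript for the 13 tested pore-forming genes, with the libraries of a group summed, blue for scramble and red for anti-miR132-3p. Scn1a, Scn2a and Scn3a stand at 20.3 to 35.2, above every calcium channel pore gene drawn, of which Cacna1d with anti-miR132-3p is the highest at 7.7.

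In sum, calcium channel pore genes had fewer reads than sodium channel ones, and they included the highest ratio among tested members. With scramble, Cacna1b, Cacna1d and Cacna1e each had more counts than Scn8a or Scn9a. Cacna1d encodes Cav1.3, an L-type channel that opens at less depolarised potentials than its relative Cav1.2. It had 66 and 69 counts in the scramble libraries and 124 and 110 in the anti-miR132-3p libraries, far apart beside the gap within each pair. It was 1.81-fold higher (1.46 to 2.26, adjusted p = 0.00040 with edgeR), and 1.7-fold after the correction for GC content and length. Cacna1c, which encodes Cav1.2, was a small part of the pore genes, with 13 and 10 counts against 10 and 12, and its groups overlapped at a ratio of 1.00 (0.532 to 1.88). Cacna1f, the L-type gene of photoreceptor and bipolar cell terminals, had 6 counts against 0. Rod and cone markers were lower too and bipolar markers were not, and the part of these cells in this was not tested. The 13 rod markers summed to 108 to 113 CPM in the scramble libraries and 26.9 to 29.7 CPM in the anti-miR132-3p libraries. Gnat1 and Prph2 were at 0 in all. In the same order, the cone markers were at 21.9 to 32.8 CPM and 7.44 to 12.6 CPM. The bipolar markers were at 134 to 164 CPM and 141 to 159 CPM.

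T-type channels open near the resting potential and drive burst firing. Cacna1g, which encodes Cav3.1, had 8 and 14 counts against 25 and 35. It was 2.85-fold higher (1.73 to 4.89, adjusted p = 0.0044 with edgeR), the highest ratio among tested members, on few counts. Cacna1i, which encodes Cav3.3, had 33 and 26 counts against 65 and 56 and was 2.15-fold higher (1.56 to 2.98, adjusted p = 0.0016). The correction for GC content and length left Cacna1g at 2.15-fold and Cacna1i at 1.58-fold, both still called. Cacna1h, which encodes Cav3.2, had 16 and 6 counts against 7 and 12, where the libraries of each group were as far apart as the groups, at a ratio of 0.904 (0.463 to 1.75). The summed T-type level was 25.1 to 31.2 CPM with scramble and 55.5 to 59.0 CPM with anti-miR132-3p.

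None of the P/Q-, N- and R-type genes, which serve transmitter release, was called by edgeR, and at an unadjusted p under 0.05 Cacna1a was higher. All 3 ratios were above 1. Cacna1b, which encodes the N-type Cav2.2, had 105 and 107 counts against 121 and 116, a ratio of 1.17 (0.968 to 1.41). Cacna1a, which encodes the P/Q-type Cav2.1, had 34 and 31 against 43 and 48, a ratio of 1.46 (1.05 to 2.05, adjusted p = 0.079 with edgeR). Cacna1e, which encodes the R-type Cav2.3, had 53 and 66 against 63 and 72, with overlapping groups. After the correction for GC content and length the ratios were 0.982, 1.1 and 1.1, so that of Cacna1b changed side.

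Subunits that carry calcium channels to the membrane differed within each family. Among the alpha2delta genes Cacna2d1, which binds gabapentin and thrombospondins, was the most abundant, with 251 and 242 counts against 250 and 218 and a ratio of 0.993 (0.873 to 1.13). Cacna2d2, reported as a brake on axon growth in sensory neurons, had 78 and 78 counts against 129 and 107. It was 1.58-fold higher (1.29 to 1.95, adjusted p = 0.0031 with edgeR), and 1.27-fold without a call after the correction for GC content and length. The alpha2delta share per kb held by Cacna2d2 was 24.1% in scramble and 34.8% in anti-miR132-3p. Cacna2d3 had 15 and 16 counts against 13 and 6, 1.56-fold lower with an interval that included 1 (0.854 to 2.92). Its log2 fold was -0.64, and -0.19 without anti-miR132-3p replicate 2 or -1.30 without replicate 1. Cacna2d4, known from photoreceptors, had 32 and 25 counts against 28 and 18, with overlapping groups.

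Of the 4 beta subunit genes, 3 were called higher, beside 13.5% of all tested genes. Only Cacnb2 among them was still called after the correction for GC content and length. Cacnb4, the most abundant in counts, was not one of them: it had 382 and 361 counts against 360 and 346, a ratio of 0.994 (0.896 to 1.1). Cacnb2 had 141 and 145 against 183 and 171, 1.3-fold higher (1.11 to 1.52, adjusted p = 0.016 with edgeR), and passed Cacnb4 per kb, at 25.7 CPM against 24.6 CPM with overlapping intervals. Cacnb3 had 49 and 59 against 66 and 101, 1.62-fold higher (1.26 to 2.08, adjusted p = 0.022). The anti-miR132-3p libraries of Cacnb3 stood far apart, and its log2 fold of 0.69 became 0.35 without replicate 2 of that group and 0.97 without replicate 1. Cacnb1, best known from skeletal muscle, had 5 and 4 counts against 11 and 12, 2.67-fold higher on few reads (1.19 to 6.57, adjusted p = 0.030). The list of 8 muscle markers held 11.5 to 14.8 CPM in the scramble libraries and 6.86 to 9.16 CPM in the anti-miR132-3p libraries, with Ckm, Tnnt2 and Tnnt3 at 0.

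Among the gamma genes 1 of 4 tested was called higher, beside 13.5% of all tested genes. Cacng5, which encodes an auxiliary subunit of AMPA receptors, had 43 and 64 counts against 82 and 94. Its scramble libraries differed by more than its anti-miR132-3p libraries, the groups did not overlap, and it was 1.72-fold higher (1.35 to 2.21, adjusted p = 0.0062 with edgeR). Cacng3, of the same function and the most abundant member per kb at 70.5 and 78.4 CPM, had 366 and 350 counts against 365 and 396, a ratio of 1.11 (1.00 to 1.23) that became 0.988 once GC content and length were corrected for. Cacng2, the stargazin gene, had 167 and 178 against 183 and 191, and Cacng4 had 132 and 161 against 133 and 128. Cacng4 and Cacng5 are neighbours in RefSeq's gene order, with ratios of 0.932 and 1.72.

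**Figure D4:**
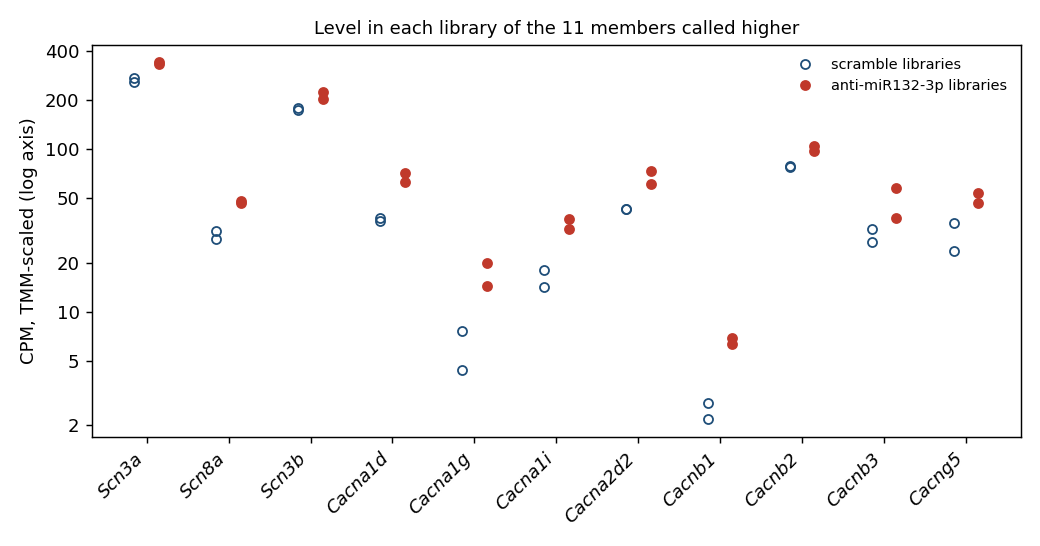
CPM in each library on a log axis for the 11 members called higher by edgeR, open blue circles for the scramble libraries and filled red circles for the anti-miR132-3p libraries. In every gene drawn both red circles lie above both blue ones, closest for Scn3b and Cacnb3.

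The other 12 members did not pass the filter on low counts, so their differences were not tested. Scn4a, Scn10a, Scn11a, Cacna1s and Cacng6 had 0 counts in all libraries, where 3 counts would be 1.64 to 1.72 CPM. The genes Scn4a and Cacna1s belong to skeletal muscle and Scn10a and Scn11a to sensory neurons. Among amacrine markers, Gad1 and Slc32a1 also had 0 counts in all libraries, while Gad2 was at 373 CPM with scramble and 513 CPM with anti-miR132-3p. Whether a 0 here means no transcript or reads lost in counting was not tested. Scn7a, which encodes a sodium-sensing relative of these channels, had 10 and 5 counts against 12 and 7. Cacng8 had 2 and 11 counts against 8 and 8, Cacng7 had 4 and 2 against 6 and 4, Scn4b 3 counts against 0 in sum and Cacng1 1 against 0.

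Members with and without a seed match had unlike medians, which is a description with no test, of genes whose results were known when the sites were searched. Of the 13 tested members with at least 1 match, 3 were called higher, Scn3a, Scn3b and Cacng5, and the median log2 fold change was 0.00. Of the 15 without a match, 8 were called higher and the median was 0.55. The share called higher over all tested genes was 13.5%. GC content moved with this split, at a median of 47.8% with and 54.6% without a match, and after the correction for GC content and length the medians were 0.01 and 0.34. Over all tested genes with a 3′ UTR, those with a match had a median of 0.01 and those without -0.00. The 3 genes with the shared site printed above had ratios of 1.00 (Scn1a), 0.878 (Scn2a) and 1.27 (Scn3a). A match of letters does not show that the miRNA binds there.

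**Figure D5:**
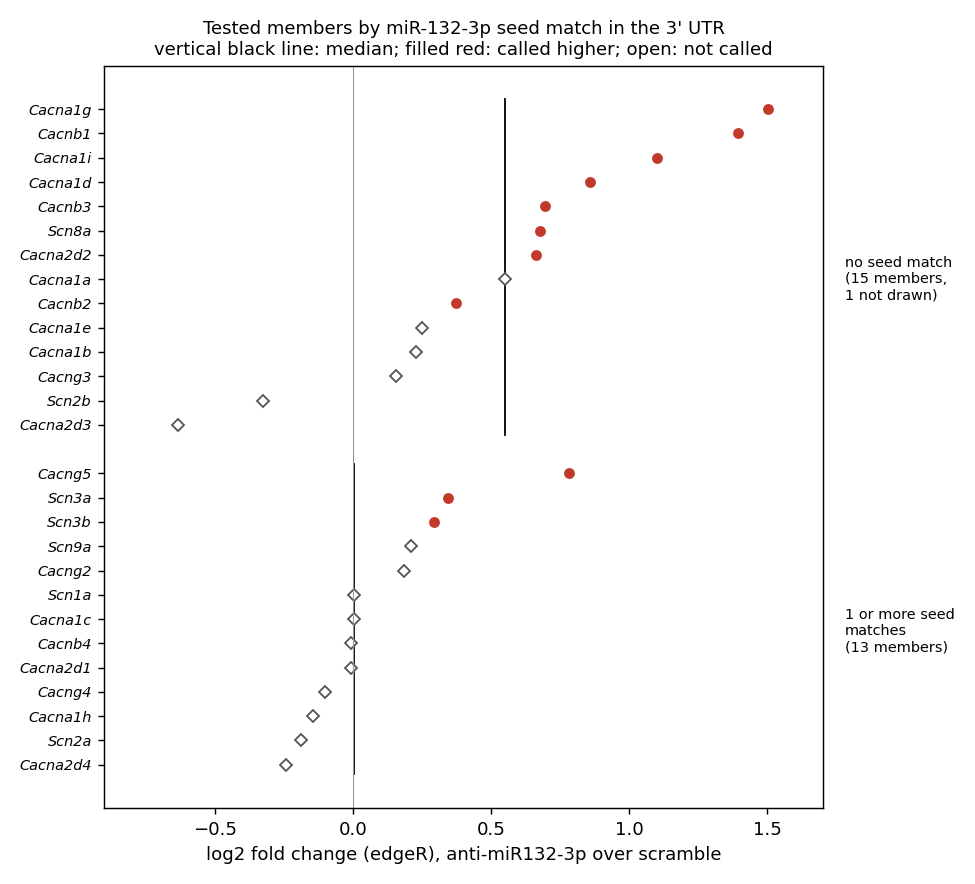
Log2 fold change (edgeR, anti-miR132-3p over scramble) of 27 of the 28 tested members, those without a miR-132-3p seed match in the 3′ UTR above and the 13 with a match below, with a black line at each median over all 15 and 13 members and filled points for members called higher. The upper median is 0.55 and the lower 0.00, and 8 of the 11 filled points are in the upper block.

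Genes that place sodium channels at the initial segment were also read. Of 18 tested members of a list of 19 sodium channel partners, 6 were called higher and 2 lower, beside 13.5% and 10.4% of all tested genes, and the median log2 fold change was 0.10. All 8 encode adhesion or scaffold proteins. Cntn2, a contactin, was 1.94-fold higher (1.27 to 3.02), Cntnap1, a partner of contactin beside nodes, 1.87-fold (1.29 to 2.73) and Nfasc, whose protein anchors the initial segment and node, 1.67-fold (1.3 to 2.16). Cntn1 was 1.19-fold lower (1.08 to 1.31) and the spectrin gene Sptbn1 1.12-fold lower (1.05 to 1.19). Ank3, whose ankyrin G gathers sodium channels at the initial segment, was at 192 and 182 CPM and was not called. The genes Fgf12, Fgf13 and Fgf14, whose proteins bind the alpha subunit's tail, had ratios of 1.00 to 1.06 without a call.

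Of 17 tested members of a list of 24 calcium channel partners, 6 were called higher and 3 lower, beside the same 13.5% and 10.4% of all tested genes, and their median was 0.11. Calm3 was 2.24-fold higher (2.10 to 2.40) while Calm2 was 1.31-fold lower (1.27 to 1.34). Both encode the same calmodulin, the calcium sensor of these channels, and reads could be split between them. Calm2 and Snap25, which was 1.07-fold lower (1.05 to 1.09), turned to the higher side after the correction for GC content and length, at log2 0.05 and 0.16. Stac2, whose protein slows L-type inactivation, was 1.64-fold higher (1.41 to 1.90).

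Other voltage-sensing and leak channels gave 2 higher and 2 lower of 8 tested, beside those shares of 13.5% and 10.4%, and their median was 0.27. Unc79 and Unc80 encode partner proteins of the sodium leak channel NALCN and went apart: Unc79 was 1.73-fold higher (1.39 to 2.16) and Unc80 1.31-fold lower (1.21 to 1.42). Hcn3, a pacemaker-type channel gene, was 3.49-fold higher on 9 counts against 30 (1.61 to 8.35). Nalcn itself, at 122 and 140 CPM, was not called. These 3 lists were written with earlier results of the same libraries known.

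Markers of the sorted cells and of other cells were read in the same libraries. The 16 ganglion cell markers were all detected. They summed to 2582 to 2668 CPM in the scramble libraries and 2421 to 2462 CPM in the anti-miR132-3p libraries. Of 14 tested, 2 were called higher and 4 lower, beside 13.5% and 10.4% of all tested genes. Amacrine markers were nearly as abundant, at 2115 to 2149 CPM and 2278 to 2331 CPM, led by Pax6, which ganglion cells also express, and Gad2. Of 5 tested amacrine markers, 3 were called higher and 0 lower, beside the same 13.5% and 10.4% of all tested genes. The other tested ones, Pax6 and Chat, had ratios of 0.984 and 0.942 without a call. Of the 11, Gad1, Slc32a1, Tfap2b, C1ql1 and C1ql2 were at 0. Müller glia markers were at 1202 to 1212 CPM and 1755 to 1770 CPM, most of it Dkk3, at 1081 and 1595 CPM in the summed libraries. The Müller list was split, with 4 log2 fold changes above 0 and 2 below. Of its 6 tested genes, 2 were called higher and 0 lower, beside those shares of 13.5% and 10.4%. Microglia markers were at 1.09 to 1.64 CPM and 18.3 to 22.9 CPM, with Itgam and Trem2 at 0 in all. The part of these cells in the channel results was not tested, and in such bulk libraries fewer cells of a type and less RNA per cell cannot be told apart.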

How the data were processed

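The authors deposited whole-number counts per gene for 4 libraries of polyadenylated RNA (paired reads of 100 bases, per the labels and the series' design text). Per the submitters' processing notes, GRCm39 was the build and Cuffdiff, Cuffnorm, Cufflinks, HISAT2 2.2.1, SAMtools 1.10 and Trimmomatic 0.39 were used. Which program counted reads, on what annotation and with what strand setting, is not given in the sources used here. Symbols were matched for 51486 identifiers. The reference at hand was GENCODE M21 on GRCm38, so no coordinates are given; lengths, GC content and 3′ UTRs come from its transcripts.

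The tests ran in edgeR 4.0.16 under R 4.3.3 (filterByExpr, TMM, glmQLFit and glmQLFTest), with limma 3.58.1 and DESeq2 1.42.0 as alternatives; other steps used Python 3.11.15. The script was tested on simulated data. Genes were fitted and adjusted over the whole table. Splines of GC content and of log length with 4 degrees of freedom made the correction for both. They were fitted to each library's deviation from the mean of all libraries and centred so that the scaling was kept. The text gives per-library counts for members called or past 1.5-fold and for the most abundant of each role, and adds the other tested members; of each partner list it names up to 3 called genes per direction by size of change, and adds Ank3, Fgf12, Fgf13, Fgf14, Nalcn, Ryr2, Slc24a3 and the Atp2b genes, chosen after their values were seen. Some genes that the rules take are not reported here. Members, lists and tests were chosen with earlier results of these data known. Alternatives covered scaling, filters, tests, left-out libraries, a replicate block, assumed variation and the correction.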

Additional observations from a re-analysis of the deposited data

How the results depend on the processing

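The counts were 11 members called higher and 0 lower, and 8 higher and 2 lower past 1.5-fold. With no low-count filter edgeR called 0 members higher, with 12 at an unadjusted p under 0.05, and 1 gene higher and 2 lower of 23361 tested. DESeq2's Wald test called 3 higher, and 4 members had no adjusted p. Summing the pairs and assuming a coefficient of variation of 0.1 left 3 called higher, beside 470 of all 11427 genes. A value of 0.2 left 0, beside 50 of all genes. Leaving out 1 library gave 0 to 3 called higher, and 1 to 3 past 1.5-fold lower; the lone library was then assumed to vary like the others. Upper quartile scaling called 1 member lower, Scn2a, beside 1442 of all 11427 genes. The correction for GC content and length called 1 lower, beside 7.27% of all tested genes, with 5 past 1.5-fold higher. A minimum count of 30 in the filter left 1 past 1.5-fold lower. A threshold of 2-fold left 3 higher and 0 lower, beside 4.3% and 0.954% of all tested genes. For the other fold counts of these settings the share over all genes is not given here. By construction a stricter filter tests fewer genes, a left-out library leaves fewer samples and an assumed variation widens the error; otherwise the cause was not tested. The log2 folds of Calm2 and Snap25 turned to 0.0542 and 0.163 with the correction, and no other called member or partner that the text names changed sign with DESeq2's size factors, library totals, a left-out library or the correction. With the replicate number as a block edgeR called 11 higher and 0 lower. Over all 11427 genes the block gave 1740 higher and 1437 lower, against 1540 and 1183 without it. Same-numbered libraries shared only a number, as their deviations correlated at 0.0126 across genes. Depth limits the members with few counts most: the interval of Cacnb1, with 9 counts against 23, ran from 1.19 to 6.57.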

Other observations

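Genes that clear calcium or hold it in stores, and so handle the calcium that channels let in, were also measured. Of 19 tested members of a list of 26, 5 were called higher and 1 lower by edgeR, beside 13.5% and 10.4% of all tested genes, with a median log2 fold change of 0.07. The called ones encode release channels of the endoplasmic reticulum store, a store-operated channel and exchangers. Itpr2 was 2.18-fold higher (1.45 to 3.34) and Itpr1 1.49-fold (1.249 to 1.77), both receptors for inositol trisphosphate, and Ryr2, a ryanodine receptor, was 1.32-fold higher (1.1 to 1.58). Orai2, a store-operated calcium channel gene, was 2.00-fold higher on 22 counts against 42 (1.17 to 3.51). The exchanger gene Slc24a3 was 1.49-fold higher (1.14 to 1.94), and Slc24a2, a relative known from cones and neurons, 1.48-fold lower (1.17 to 1.90). The plasma membrane pump genes Atp2b1, Atp2b2, Atp2b3 and Atp2b4 had ratios of 0.936 to 1.16 and none was called.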
